A study of Mus musculus with 4 samples.

Results

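Orosomucoids, haptoglobin, hemopexin, lipocalin 2, serum amyloid A 3 and Serpina3n are plasma acute-phase proteins whose genes are also active in fat cells. They are represented here by the 8 mouse genes Orm1, Orm2, Orm3, Hp, Hpx, Lcn2, Saa3 and Serpina3n, chosen as the array probes that carry one of these names, out of 35019 genes with a probe. Each of the 8 had 1 probe, printed as 1 spot, and each spot was well above background on all 4 arrays. Over 7 days with daidzein the group did not move as a block: the 3 orosomucoids and Lcn2 were 2.14-fold to 8.30-fold higher than with PBS, Saa3 was 1.96-fold lower, and Hp, Hpx and Serpina3n differed by at most 0.14 on the log2 scale. With pig testis extract, Hp was among the higher members, together with Orm1, Orm2 and, to a lesser degree, Lcn2.

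Acute-phase proteins are secreted mainly by the liver when cytokines such as interleukin 6, interleukin 1 and tumour necrosis factor, together with glucocorticoids, report injury or infection. Transcription factors of the C/EBP family, STAT3 and NF-kB carry that signal to their genes. White fat is a second source, and several of these proteins are measured as adipokines: orosomucoids carry lipophilic ligands in plasma, haptoglobin binds free haemoglobin, hemopexin binds free haem, lipocalin 2 binds iron-loaded bacterial siderophores, serum amyloid A 3 is the form of that apolipoprotein made outside the liver, and Serpina3n inhibits serine proteases.

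The cells were 3T3-L1, an established line of mouse preadipocytes, brought to the adipocyte state before treatment. All 4 groups were such differentiated cells kept for 7 days in 1 of 4 conditions: PBS as the control, daidzein at 25 uM, PT (the pig testis extract of the series title) at 100 ug/ml, or daidzein+PT at the same amounts. Daidzein is an isoflavone of soy, and the series is about adiponectin expression under PT. Total RNA of each group was labelled with Cy3 and read on 1 Agilent array of 60-base probes.

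There was 1 array per group, so no difference below has a replicate check or a p-value, and the number of arrays limits the precision. The labels do not say how many cultures stood behind an array. Between 49.7% and 51.4% of spots were well above background and none was saturated. PBS and daidzein lay in slide row 1, PT and daidzein+PT in row 2, so that PT and the row cannot be told apart, and each daidzein array lay in the column after the array it is compared with. Levels are given relative to the 75th percentile of the array's probes, and differences as log2 ratios, on which 1 is 2-fold. As a yardstick, the SD of a difference between arrays was taken from how far the PT difference with daidzein departed from that without it, over all genes of like brightness. It was 0.11 for bright genes (Hp), 0.14 for genes of middle brightness (the orosomucoids, Lcn2 and Saa3) and 0.33 for dim genes (Hpx and Serpina3n), and it counts any real interplay of the treatments as spread. An effect of the slide row cancels in this departure, as does an equal shift from a column to the next. The SD holds neither. Feature Extraction's own error of a single spot was at most 15.3% of the signal for these probes. For a difference of 2 arrays this error came to 0.20 or more on the log2 scale, above the SD for bright and middle genes.

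The orosomucoids, or alpha-1-acid glycoproteins, are encoded by neighbouring genes of mouse chromosome 4. Their probes lay in mm9 at chr4:63006483-63007090 (Orm1), chr4:63018910-63020393 (Orm3) and chr4:63024979-63025038 (Orm2). The Orm1 and Orm3 probes spanned 608 and 1484 bases of the genome and so crossed a splice junction, while the Orm2 probe lay on 60 contiguous bases. Because the 3 genes are close relatives, the bases that were read are shown, in lower case.
Orm1 probe: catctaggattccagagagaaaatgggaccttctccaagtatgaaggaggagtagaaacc
Orm2 probe: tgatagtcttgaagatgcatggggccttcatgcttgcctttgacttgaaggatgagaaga
Orm3 probe: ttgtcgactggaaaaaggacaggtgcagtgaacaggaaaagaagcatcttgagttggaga
The longest stretch that any of these 3 probes shared with a probe of another gene was 14 bases. Their match to each other's transcripts was not analysed here, so signal from a relative cannot be separated from a gene's own.

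Orm2 was at 1.03 with PBS, 2.23 with PT, 8.51 with daidzein and 17.1 with daidzein+PT. Orm1 was at 0.592 with PBS, 1.23 with PT, 2.87 with daidzein and 6.64 with daidzein+PT. Both genes had the same order of arrays, and each step in that order was larger than 2 SD of a difference. Orm3 was at 1.13 with PBS, 1.16 with PT, 2.42 with daidzein and 3.46 with daidzein+PT. Its PBS and PT levels, 0.04 apart on the log2 scale, did not differ beyond the spread, whereas the 2 arrays with daidzein stood above both.

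**Figure D1:**
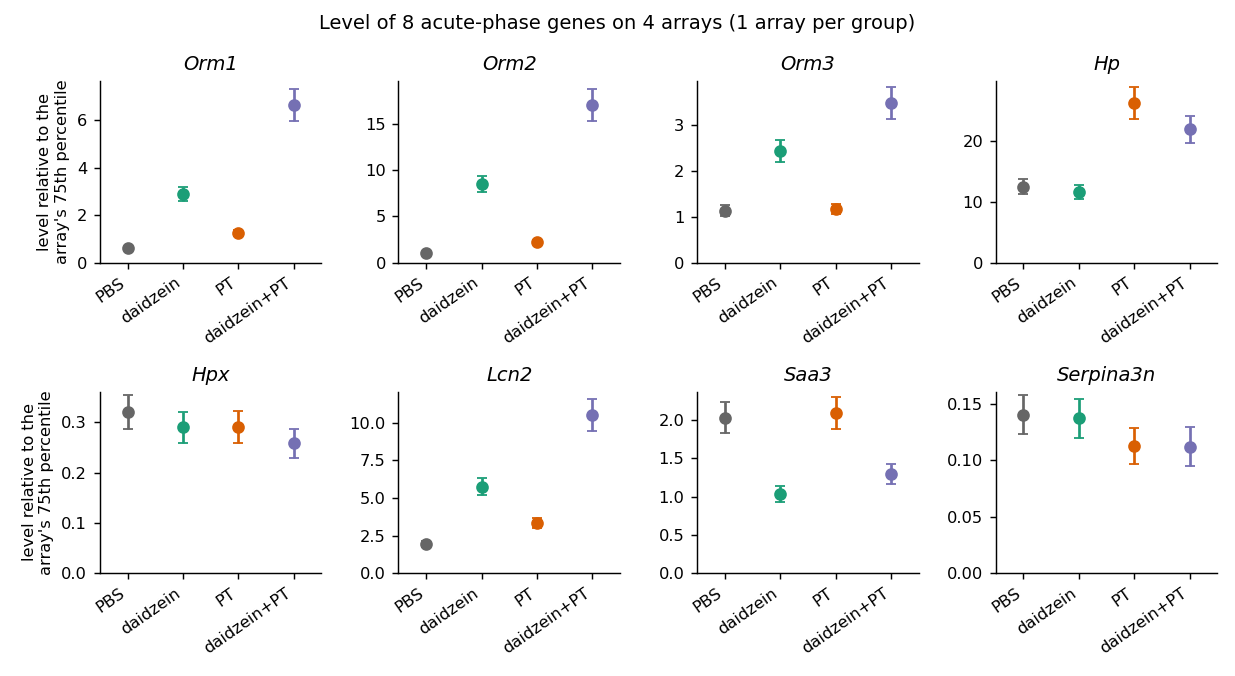
Level of each acute-phase gene on the 4 arrays (y axis: processed signal relative to the array's 75th percentile, linear, starting at 0; x axis: treatment; bars: Feature Extraction's error of the spot). Orm1, Orm2 and Lcn2 climb from PBS through PT and daidzein to daidzein+PT, Hp is high on both arrays with PT, and Saa3 is low on both arrays with daidzein.

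For Orm2 the log2 difference was 3.05 for daidzein over PBS (8.30-fold, SD 0.14), which was rank 6 of 19014 genes compared, and 2.94 for daidzein+PT over PT (rank 8 of 18613). Orm1 differed by 2.28 (4.85-fold) and 2.43 (5.40-fold) in the same 2 pairs. Orm3 differed by 1.099 (2.14-fold) and 1.57 (2.98-fold), and its value over PBS missed 2-fold under normexp (0.97). The order Orm2, Orm1, Orm3 was thus the same in both daidzein pairs, which have no array in common. Of 8 adipocyte markers, the 7 above background were higher on the same arrays, with a median difference of 2.55 and 2.28 in these 2 pairs. Their part in the differences of the orosomucoids and of Lcn2 was not tested, and in bulk RNA more cells of a type and more RNA per cell cannot be told apart.

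With PT alone, Orm2 was 1.12 and Orm1 1.05 higher than with PBS on the log2 scale (2.17-fold and 2.08-fold). On top of daidzein, PT went with differences of 1.004 for Orm2 and 1.21 for Orm1. Both stood near the 2-fold line: with another background correction (normexp) the PT over PBS values were 0.98 and 0.87, and Orm2 missed 2-fold in daidzein+PT over daidzein under each of the 3 alternatives that could move it (normexp, quantile normalization and the authors' value table), with a lowest value of 0.95. Orm3 differed by 0.52 between daidzein+PT and daidzein, against 0.04 between PT and PBS. With both agents together the orosomucoids were 16.6-fold (Orm2), 11.2-fold (Orm1) and 3.06-fold (Orm3) above PBS.

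Lcn2, the neutrophil gelatinase-associated lipocalin, is read by a probe at chr2:32240199-32240258 in mm9. Its levels were 1.93 with PBS, 3.35 with PT, 5.74 with daidzein and 10.5 with daidzein+PT. The arrays came in the same order as for Orm1 and Orm2, with smaller steps of 0.77 to 0.87, each beyond 2 SD. Daidzein went with 1.57 more on the log2 scale over PBS (2.97-fold) and 1.65 more over PT (3.13-fold). PT went with 0.80 without daidzein and 0.87 with it, under 2-fold in both pairs. The 2 agents together put Lcn2 at 5.45-fold its PBS level.

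The 2 scavengers of haemoglobin and haem behaved unlike each other. Hp, probed at chr8:112099045-112099104 in mm9, was at 11.6 with daidzein, 12.5 with PBS, 22.0 with daidzein+PT and 26.4 with PT. The 2 arrays with PT were high and the 2 without it low, and daidzein and PBS, 0.11 apart, did not differ beyond the spread. Hp was 1.08 higher with PT than with PBS (2.11-fold, SD 0.11, rank 145 of 18904) and 0.92 higher with daidzein+PT than with daidzein (1.89-fold). It was the member with a PT difference of this size and no daidzein difference in the same direction: its daidzein values were -0.11 over PBS and -0.26 over PT, the latter just beyond 2 SD and close to the 0.20 that the errors of the 2 spots give. As PT went with the slide row, this pattern is also a difference between rows.

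Hpx, probed at chr7:112740304-112740363 in mm9, was at 0.321 with PBS, 0.291 with PT, 0.290 with daidzein and 0.258 with daidzein+PT. No neighbouring pair in this order was farther apart than 0.17, within the spread of 0.33 for dim genes. The lowest value, daidzein+PT over PBS, was -0.31 (-0.13 under normexp), and differences of this size could not be resolved here.

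Saa3 was the member that was lower with daidzein. Its probe lies at chr7:53970389-53970448 in mm9, and its levels were 1.03 with daidzein, 1.29 with daidzein+PT, 2.03 with PBS and 2.09 with PT. Both arrays with daidzein were below both arrays without it. The difference was -0.97 for daidzein over PBS (1.96-fold lower, SD 0.14), which was rank 81 from the lowest of 19014 genes, and -0.70 for daidzein+PT over PT (1.62-fold lower). These values missed the 2-fold line under all 6 settings. PBS and PT, 0.04 apart, did not differ beyond the spread. Daidzein+PT was 0.32 above daidzein, where the errors of the 2 spots give 0.21.

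Serpina3n, probed at chr12:105651918-105651977 in mm9, was at 0.140 with PBS, 0.137 with daidzein, 0.113 with PT and 0.112 with daidzein+PT. Its spot error was the largest of the 8 (12.3% to 15.3%), and none of its neighbouring levels differed beyond the spread. Its values for PT were -0.31 over PBS and -0.29 over daidzein, within 1 SD of 0.33, and over the settings the first ran from -0.51 to -0.20 and the second from -0.40 to -0.01. Its value for daidzein was -0.03 over PBS.

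**Figure D2:**
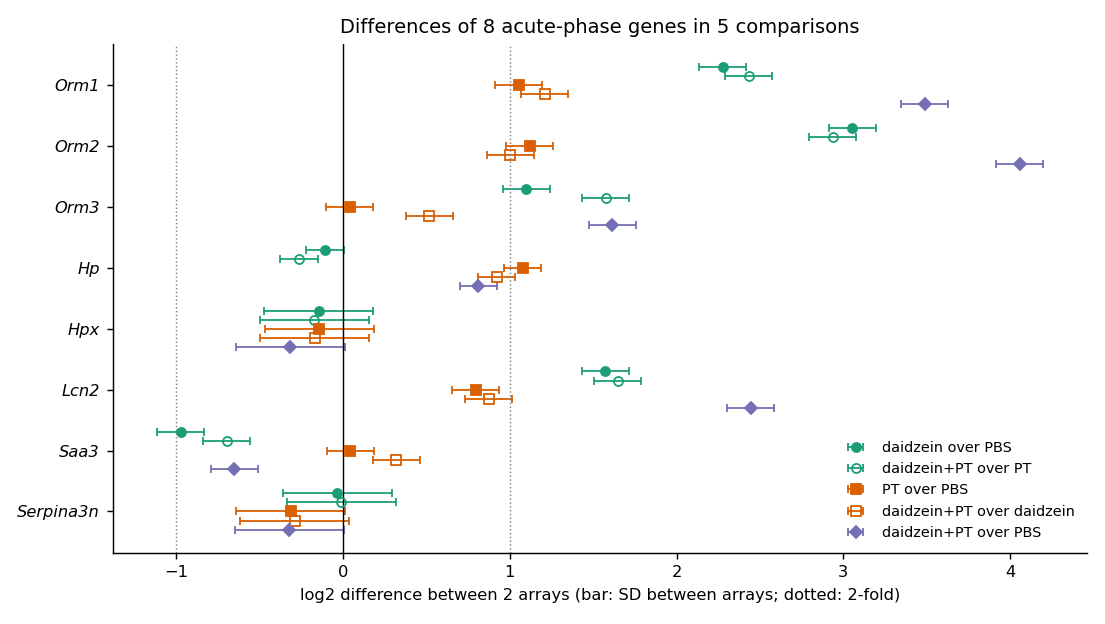
Log2 differences of the 8 genes in the 5 comparisons (x axis; dotted lines: 2-fold; bars: SD of a difference for genes of like brightness). The orosomucoids and Lcn2 lie right of 0 for daidzein in both pairs (from 1.099 to 3.05), Hp only for PT (1.08 and 0.92), and Saa3 left of 0 for daidzein (-0.97 and -0.70).

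Counted at 2-fold, 4 of the 8 members were higher in daidzein over PBS, where 1.1% of all 19014 genes compared were, and 0 were lower, where 0.368% of all genes were. In PT over PBS 3 of 8 were higher (Orm1, Orm2 and Hp) beside 0.873% of all genes, and 0 lower beside 0.0635%. Under normexp only 1 of the 3, Hp, was at 2-fold. In daidzein+PT over PBS 4 were higher beside 2.52%, and 0 lower beside 0.55%. In daidzein+PT over daidzein 2 were higher (Orm1 and Orm2) beside 1.09%, and 0 lower beside 0.102%. Under normexp only 1 of them, Orm1, was at 2-fold. In daidzein+PT over PT 4 were higher beside 2.1%, and 0 lower beside 0.849%. The members' median log2 difference was 0.53 for daidzein over PBS, 0.42 for PT over PBS and 1.21 for daidzein+PT over PBS, where the median of all genes was -0.03, -0.02 and -0.03. The comparisons over PBS share the PBS array and are not independent of each other. The members were chosen with earlier results of these data known, so the shares here and below are a description and no test. The 3 orosomucoids, close relatives whose signals could not be separated here, stand as 3 genes in these counts and those below.

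The layout offers each treatment in 2 pairs without a common array. Orm1, Orm2, Orm3 and Lcn2 were 2-fold or more higher in both daidzein pairs (Orm3 not so under normexp), as were 0.894% of the 18349 genes well above background on all 4 arrays. Orm1 and Orm2 were so in both PT pairs, as were 0.158% of these genes. Under normexp neither was, with 0.87 for Orm1 and 0.98 for Orm2 in PT over PBS. Orm2 was also at the 2-fold line in daidzein+PT over daidzein (1.004, lowest value 0.95). On the lower side 0 members were at 2-fold in both daidzein pairs (0.163% of these genes) or in both PT pairs (0.00545%). The PT difference with daidzein minus that without was 0.15 for Orm1, -0.12 for Orm2, 0.08 for Lcn2, -0.16 for Hp, 0.28 for Saa3, -0.03 for Hpx and 0.02 for Serpina3n, all within 2 SD. On a log scale the 2 agents' differences added up to within 1 SD for Orm1, Orm2, Lcn2 and Hp in the main processing. Orm1 was at 0.26 under normexp (SD 0.20) and Hp at -0.22 with quantile normalization (SD 0.16), beyond 1 SD but within 2 SD. For Hpx and Serpina3n the SD of this measure, 0.46, was too wide to tell. The PT difference of Saa3 was 0.04 without daidzein and 0.32 with it. Orm3, at 0.48, was the member whose value lay beyond 2 SD, while the errors of its 4 spots give 0.29. In this measure 0 members reached 2-fold, beside 0.687% of all genes on the higher and 0.654% on the lower side.

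**Figure D3:**
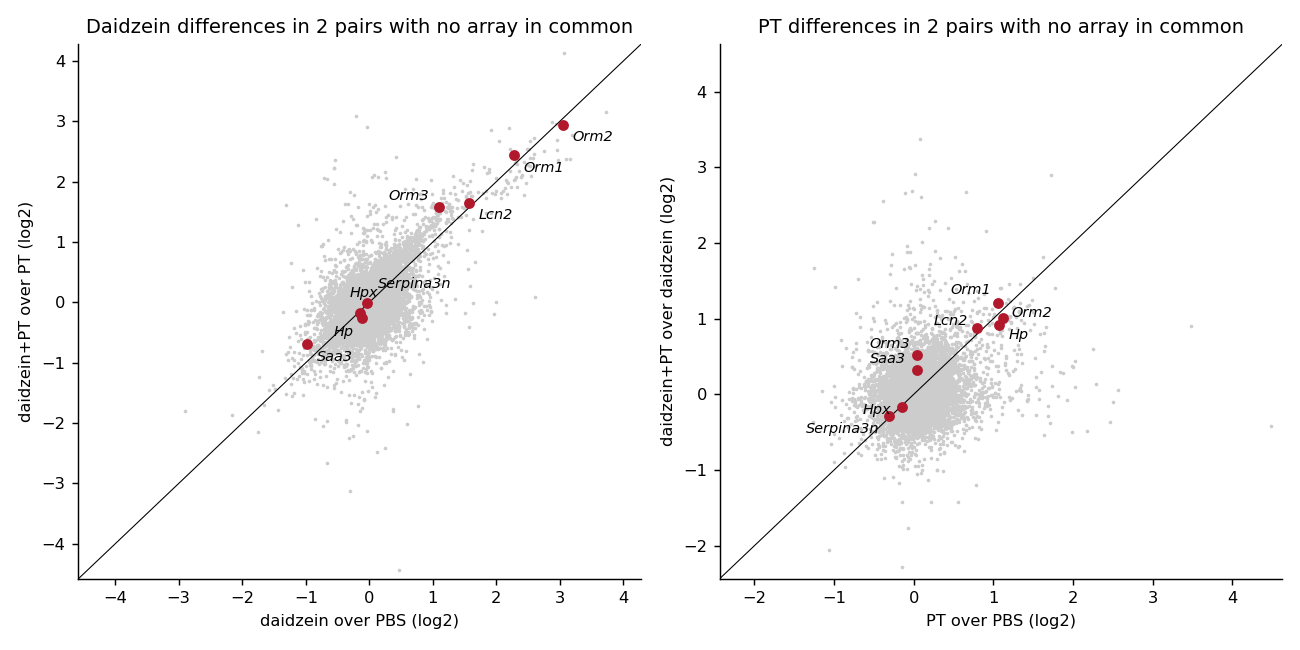
Each point is 1 gene, with its log2 difference in one pair of arrays (x axis) against that in the other pair (y axis), for daidzein on the left and PT on the right; red points are the acute-phase genes and the line is equality. Orm1 (2.28, 2.43), Orm2 (3.05, 2.94) and Lcn2 (1.57, 1.65) lie close to the line at the upper right of the daidzein panel, and Hp (1.08, 0.92) joins Orm1 and Orm2 in the PT panel.

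Of the 8 genes, 6 had an upstream sequence in the RefSeq table used (GRCm38.p6). The windows of 250 bases before to 50 bases after the start were searched on both strands for 4 binding motifs of the regulators named above. The C/EBP letters TTGCNNAA were present in 5 of the 6, namely Orm2, Orm3, Hpx, Lcn2 and Saa3, and in 10.8% of 32851 promoters of the same length. The match was TTGCGCAA at 120 bases before the start in Orm2, TTGCACAA at 121 in Orm3, TTGCTGAA at 200 in Hpx, TTGCTCAA at 216 in Lcn2 and, on the minus strand, TTATGCAA at 99 in Saa3. The genes with the letters thus included members that were higher (Orm2, Orm3, Lcn2), lower (Saa3) and not different (Hpx) with daidzein. The 250 upstream bases of the 4 genes that differed are shown, with the C/EBP match in capitals. They lie at chr4:63362199-63362448 on the plus strand (Orm2), chr4:63355908-63356157 on the plus strand (Orm3), chr2:32387740-32387989 on the minus strand (Lcn2) and chr7:46715677-46715926 on the minus strand (Saa3).
Orm2 upstream: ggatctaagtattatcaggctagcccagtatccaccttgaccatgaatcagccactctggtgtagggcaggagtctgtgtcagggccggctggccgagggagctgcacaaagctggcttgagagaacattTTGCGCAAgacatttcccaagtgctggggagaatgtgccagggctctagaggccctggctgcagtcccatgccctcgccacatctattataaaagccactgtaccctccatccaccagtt
Orm3 upstream: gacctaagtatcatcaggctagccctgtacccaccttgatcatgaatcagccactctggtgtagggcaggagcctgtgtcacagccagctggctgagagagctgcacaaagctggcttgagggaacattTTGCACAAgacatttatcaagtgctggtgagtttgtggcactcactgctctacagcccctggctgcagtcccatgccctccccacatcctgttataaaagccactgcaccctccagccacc
Lcn2 upstream: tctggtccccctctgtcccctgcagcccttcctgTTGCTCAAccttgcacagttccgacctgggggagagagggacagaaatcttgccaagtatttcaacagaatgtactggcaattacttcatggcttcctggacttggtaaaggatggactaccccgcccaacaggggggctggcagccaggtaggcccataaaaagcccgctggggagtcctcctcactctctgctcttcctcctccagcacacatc
Saa3 upstream: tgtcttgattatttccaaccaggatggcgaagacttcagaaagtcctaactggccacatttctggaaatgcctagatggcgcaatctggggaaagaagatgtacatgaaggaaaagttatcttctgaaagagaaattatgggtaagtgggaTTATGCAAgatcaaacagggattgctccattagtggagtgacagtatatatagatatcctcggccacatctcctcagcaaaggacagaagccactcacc
The whole windows of Orm2 and Orm3 were identical at 263 of 295 aligned bases (89.2%). The NF-kB motif (0.411% of promoters) and the STAT letters TTCNNNGAA (8.30%) had no match in the 6 windows. The palindromic motif of the glucocorticoid receptor, held by 0.475% of promoters, was found in Serpina3n at 78 bases before the start, as GCACAGCTTGTCC. A match describes letters only and does not show that a factor binds there.

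The regulators were read from a list of 13 C/EBP and glucocorticoid genes, all well above background on all 4 arrays. Cebpa, the C/EBP factor of mature fat cells, was at 1.03 with PBS, 1.72 with PT, 2.98 with daidzein and 5.80 with daidzein+PT. Hsd11b1, which regenerates active glucocorticoid inside the cell, was at 1.49, 2.45, 4.39 and 8.62 on the same arrays. These were the 2 of 13 at 2-fold or more in daidzein over PBS (1.53 and 1.56) and in daidzein+PT over PT (1.75 and 1.82), in the same order of arrays as Lcn2. Cebpb and Cebpd, the C/EBP forms known from the acute-phase response, differed by -0.04 and -0.12 between daidzein and PBS, and the list's median was -0.03, equal to that of all genes. Cebpg was 0.43 higher and the glucocorticoid receptor Nr3c1 0.09 higher.

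Cytokine signalling genes were read from 2 further lists. Of 20 genes of the IL-6 family and STAT3 pathway 17 were well above background on all arrays, and 0 were 2-fold higher or lower in any comparison. Among all genes at most 2.52% were higher and at most 0.849% lower, so a count of 0 is near that share. Their median was -0.17 for daidzein over PBS, -0.06 for PT over PBS and -0.28 for daidzein+PT over PBS. Of the 17 genes 4, 3 and 4 lay above 0 in these comparisons, where 43.9%, 44.5% and 45.5% of all genes did. Il6 itself was near the floor, at 0.049 with PBS, 0.050 with PT, 0.076 with daidzein and 0.083 with daidzein+PT. Only the 2 arrays with daidzein were well above background. The bound was 1.53-fold for daidzein over PBS and 1.65-fold for daidzein+PT over PT. On the log2 scale the first, 0.62, was within 2 SD for dim genes (SD 0.33), and a bound leaves out the error of the brighter spot. Socs3, the feedback inhibitor that STAT3 induces, was at 10.2 with PBS, 9.55 with daidzein, 8.39 with PT and 7.27 with daidzein+PT. The receptor Lifr, the cytokine Il11 and the inhibitor Socs1 were 0.50, 0.70 and 0.65 below PBS with daidzein+PT, and Il11 was at -0.34 under normexp. Of 25 genes of IL-1, TNF and NF-kB signalling 21 were compared and 0 were at 2-fold, again near the share of all genes. Their medians were -0.04, -0.01 and -0.09. The largest difference there over PBS was in the receptor Tlr2, -0.50 for daidzein+PT. The cytokine Il1a was well above background with daidzein+PT alone, at least 2.31-fold above PBS.

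Of 32 listed acute-phase proteins outside the 8, 30 had a probe and 10 were well above background on all 4 arrays. None of the 10 was 2-fold higher in any of the 5 comparisons, where 0.873% to 2.52% of all genes were, so this count is near that share. For 2-fold lower the shares of all genes were 0.0635% to 0.849%. Their median was -0.09 for daidzein over PBS, 0.00 for PT over PBS and -0.33 for daidzein+PT over PBS. Lbp, the lipopolysaccharide-binding protein, was at 0.496 with PBS, 0.498 with PT, 0.233 with daidzein and 0.234 with daidzein+PT, so that both arrays with daidzein were low, as for Saa3. The complement gene C4b was 1.06 and 1.08 lower in the daidzein pairs, with levels of 1.13 with PBS, 1.03 with PT, 0.544 with daidzein and 0.485 with daidzein+PT. Lbp and C4b were the 2 of 10 at 2-fold lower, and under normexp both missed 2-fold, as did Lbp over PBS when its probes were averaged (its range over all settings was -1.09 to -0.74). Complement C3 was 0.20 higher with daidzein, 0.24 higher with PT and 0.89 higher with both, and Saa1, a serum amyloid A of the liver, was 0.27 lower with daidzein.

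Of genes well above background on part of the arrays only a bound can be given. Steap4, a metalloreductase of fat cells, was not well above background with PBS or PT and was at least 4.30-fold higher with daidzein than with PBS and at least 6.27-fold higher with daidzein+PT than with PT. Serping1, the C1 inhibitor of complement, was well above background with PBS and PT alone and was at least 2.81-fold lower with daidzein than with PBS.

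The families of Serpina3n and Lcn2 were also read. Among 10 other Serpina3 genes 7 were compared and 0 were at 2-fold, near the share of all genes (at most 2.52% higher and 0.849% lower). The widest value was -0.72 for Serpina3f in daidzein+PT over daidzein, which was -0.44 under normexp. Among 15 other lipocalins 6 were compared by their brightest probe. Of these, 0 were 2-fold higher in any comparison, near the share of all genes. Ptgds, 1 of the 6, was 2-fold lower in daidzein+PT over PBS (-1.01, and -0.93 under normexp), beside 0.55% of all genes. Apod, the brightest of them, was at 208 with PBS, 190 with PT, 122 with daidzein and 122 with daidzein+PT. Its daidzein+PT over PBS value was -0.77 by the brightest probe but 2.18 with its 2 probes averaged. The prostaglandin D synthase Ptgds, a lipocalin, was at 3.26 with PBS, 2.18 with PT, 1.80 with daidzein and 1.61 with daidzein+PT, opposite in direction to Lcn2. Lcn6, at a dim signal, was 0.74 higher with daidzein and 0.57 higher with PT, but 0.13 and 0.048 higher under normexp.

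Among 19 ligand partners and clearance receptors of the 8 proteins, 13 were compared. Mmp9, the gelatinase with which lipocalin 2 forms a complex, was at 0.647 with PBS, 0.664 with PT, 0.275 with daidzein and 0.293 with daidzein+PT, 1.23 lower with daidzein than with PBS and under 2-fold with normexp (-0.87). Asgr2, a subunit of the asialoglycoprotein receptor that clears orosomucoid, was 1.002 higher with daidzein (0.68 under normexp) and 1.87 higher with daidzein+PT than with PBS. Scarb1, a receptor for lipoproteins and serum amyloid A, was 0.98 and 1.60 higher. Tfrc, the transferrin receptor, was 0.50 and 0.72 higher, the latter 1.21 with its 3 probes averaged. The list's median was 0.15 for daidzein over PBS.

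**Figure D4:**
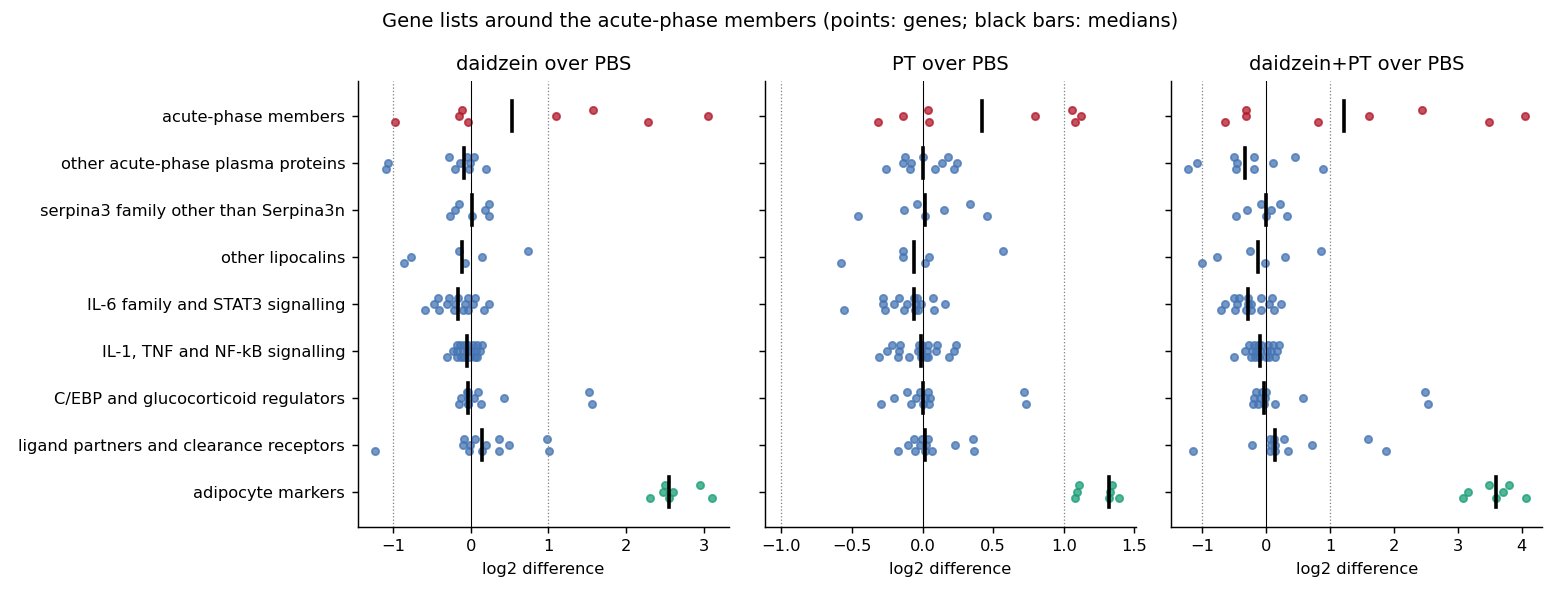
Log2 differences over PBS (x axis) of the genes of each list (points, those well above background on both arrays; black bars: medians; dotted lines: 2-fold) for daidzein, PT and daidzein+PT. The acute-phase members are spread from -0.97 to 3.05 for daidzein. The cytokine lists lie within 2-fold, with medians from -0.28 to -0.01. The adipocyte markers lie together at the right (medians 2.55, 1.32 and 3.60).

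The label of adipocytes was set against markers. Of 8 adipocyte markers 7 were well above background on all 4 arrays, and Lep on none. Their summed level was 106.8 with PBS, 237 with PT, 644 with daidzein and 1084 with daidzein+PT, the same order of arrays as for Orm1, Orm2 and Lcn2. Each of the 7 was 2-fold or more higher in daidzein over PBS and in PT over PBS, and Adipoq, adiponectin, was 2.31 and 1.08 higher. Preadipocyte and fibroblast markers, all 8 above background, summed to 1373 with PBS, 1368 with PT, 1152 with daidzein and 1162 with daidzein+PT. The sum was lower on both arrays with daidzein, as were Saa3, Lbp, C4b and Mmp9. Its largest term was Dlk1, at 551 with PBS, 538 with PT, 410 with daidzein and 425 with daidzein+PT. All 8 lay below 0 in daidzein over PBS, with a median of -0.33. The part of these markers in the differences of Saa3, Lbp, C4b and Mmp9 was not tested.

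Markers of other cell types that make these proteins were also read. Of 8 hepatocyte markers, 7 of them with a probe, Tat was well above background on all arrays and Alb with PT alone, and the sums were 0.173 to 0.347. Of 8 macrophage markers, 5 (Cd68, Csf1r, Itgam, Cd14 and Aif1) were well above background on all 4 arrays, Lyz2 on 3, and Adgre1 and Ptprc on none. The list's sum ranged from 35.1 to 37.8, and most of it was Itgam (30.7 to 33.8). The neutrophil markers S100a9, Ltf and Ngp were above background on no array, while the sum of that list was 3.97 with PBS, 4.84 with daidzein, 4.92 with PT and 7.64 with daidzein+PT, higher with both agents as Lcn2 was. The part of the neutrophil list in the Lcn2 difference was not tested. Of 4 reference genes, Actb, Gapdh and Tbp differed from PBS by at most 0.19 in the 3 treatments, while Hprt was 0.28 higher with daidzein and 0.44 higher with daidzein+PT.

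Over the 4 arrays, the genes whose log2 levels, centred on their mean, were most like a member were searched among 12359 named genes, with the root mean square difference in log2 units as the measure. Nearest to Lcn2 were Adgrg1 (0.03) and Cebpa (0.04). Nearest to Orm1 were Cmbl (0.07) and G0s2 (0.08), the latter an inhibitor of fat-cell lipolysis, and nearest to Orm2 were Cox8b (0.08) and Cd36 (0.08), the latter a fatty acid transporter. Orm3 was nearest to Cd79a (0.03) and Slc22a20 (0.05), and Saa3 to Cdsn (0.03) and Fmo1 (0.05). Nearest to Hp were Tssk5 (0.18) and 9130024F11Rik (0.19). Within 0.2 lay 4 genes for Orm2, 5 for Hp, 22 for Orm1, 44 for Lcn2, 70 for Orm3 and 181 for Saa3. The flat patterns of Hpx and Serpina3n had 9137 and 7870 genes within 0.2. A profile of 4 points allows many genes to look alike, so these names are descriptions.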

How the data were processed

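RNA of 4 groups was read on 1 single-colour array each. The deposited scanner files hold a linear spot intensity that Agilent Feature Extraction had subtracted for background and detrended within the array, with its error and flags, per the file headers (version 10.7.1.1, while 9.5.1.1 stands in the submitters' processing notes). The deposited value table holds an intensity whose columns have 1 common distribution (median 18.3), as its values show, and served as an alternative.

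Control and outlier spots (106 to 173 per array) were left out. The processed intensity as deposited was put on the log2 scale, replicate spots were averaged, and the array's 75th percentile over 55681 probes (304 to 353) was subtracted. Genes took their brightest probe; 27235 probes matched a RefSeq accession (GRCm38.p6), which renamed 2838. Positions are mm9, as the files give them; exons were not analysed here. Genes well above background on both arrays were compared and counted at 2-fold. A bound was taken where 1 array was not well above background: the higher of the dim probe's own level and the lowest signal well above background stood in for it. Known differences in simulated arrays were recovered by the same steps, as tested on simulated data. Python 3.11.15 with pandas 2.3.3 was used, and R 4.3.3 with limma 3.58.1 for normexp.

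The members and all lists (7 gene lists, 5 marker lists) were chosen with earlier results of these data known. Named are the 8 members, up to 4 genes per list with the largest daidzein+PT over PBS difference on all 4 arrays, list genes at 2-fold in both pairs of a treatment, the 2 nearest patterns per member, and reference genes. Genes named outside that rule, chosen after their values were seen, are Cebpb, Cebpd, Nr3c1, Il6, Il1a, Col1a1, Csf1r, Steap4, Serping1 and the markers not above background on all arrays. Alternatives were normexp, quantile normalization, no filter, the mean over a gene's probes, and the value table.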

Additional observations from a re-analysis of the deposited data

How the results depend on the processing

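With 1 array per group no replicate can be left out. No paired analysis was possible because each group has only 1 replicate. The 2 pairs per treatment come from the layout. The depth of an array is its signal over background, and for Hpx, Serpina3n and other dim genes it leaves differences under 0.33 (log2) within 1 SD, and those under 2 SD were not called. Of 48 values of the members, 10 moved by more than 1 SD under normexp, 0 with quantile normalization and 0 with the authors' value table; the filter and probe averaging cannot move them, as each has 1 probe above background. Of 288 values of the named list genes, 31 moved under normexp, 33 with probe averaging, 2 with quantile normalization and 2 with the value table. No value at 2-fold or more changed sign. Some smaller ones did, as Apod in daidzein+PT over PBS (-0.77, and 2.18 with probe averaging). The cause of the moves below was not tested, except that dropping the filter adds dim genes. Under normexp, the genes 2-fold higher numbered 116 for daidzein and 41 for PT over PBS, 290 for both agents over PBS, 65 for both over daidzein, 236 for both over PT and 28 in the interaction, and those lower 16, 2, 36, 2, 41 and 9 in the same order. The members 2-fold higher were then 1 in PT over PBS and 1 in daidzein+PT over daidzein, and 1 in the latter also with quantile normalization and with the authors' value table. With no filter the genes higher numbered 1800, 2210, 2684, 2091, 2057 and 2500, and those lower 1162, 889, 1048, 1096, 1788 and 2691. Genes 2-fold lower in PT over PBS were 30 with quantile normalization, 22 when probes were averaged and 30 in the authors' value table, and with the mean over probes 181 were lower in the interaction. The median of the other acute-phase proteins was -0.18 (daidzein+PT over PBS) and -0.17 (daidzein+PT over PT) under normexp, -0.12, 0.079 and, in daidzein+PT over daidzein, 0.33 with no filter, and -0.19 in daidzein+PT over PT with the mean over probes. The median of the other lipocalins was 0.16 (PT over PBS), 0.34 (daidzein+PT over PBS) and 0.16 (daidzein+PT over PT) with no filter, and 0.14 and 0.11 in the last 2 with the mean over probes. That of ligand partners and receptors in daidzein+PT over PBS was 0.30 with no filter.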

Other observations

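The order of arrays of Lcn2 was also seen in 2 genes known from neutrophil granules and cytosol, Camp and S100a8. In these genes daidzein and PT lay closer together, within 2 SD of a difference (SD 0.14), so the order of these 2 arrays was not resolved. Their log2 differences from PBS were 1.19 and 1.08 for Camp and 1.21 and 0.94 for S100a8, against 1.57 and 0.80 for Lcn2. Camp, the precursor of the antimicrobial peptide cathelicidin, was at 0.424 with PBS, 0.898 with PT, 0.970 with daidzein and 2.57 with daidzein+PT. S100a8, a subunit of the calcium-binding protein calprotectin, was at 0.417 with PBS, 0.801 with PT, 0.966 with daidzein and 2.01 with daidzein+PT. Both had the lowest level with PBS and the highest with daidzein+PT, 6.05-fold and 4.82-fold apart. Under normexp the daidzein over PBS values, 1.19 and 1.21 on the log2 scale, were 0.91 and 0.92. Elane, a granule protease on the same list, was at 2.27 with PBS and differed from it by 0.08 with daidzein, 0.07 with PT and 0.13 with daidzein+PT. S100a9, the usual partner of S100a8, was not well above background on any array. Ly6g, a surface marker of neutrophils, went the other way and was 0.88 lower with daidzein than with PBS and 0.72 lower with daidzein+PT than with PT. These 5 genes were among the 8 neutrophil markers, and each was read on 1 array per group.

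Among preadipocyte markers, Ly6a (Sca-1), a surface marker of progenitor cells, was at 19.4 with PBS, 18.1 with PT, 11.1 with daidzein and 10.9 with daidzein+PT, with both arrays with daidzein low, as for Saa3. Thy1 was at 54.2, 52.8, 39.0 and 39.8 on the same arrays. Col1a1, the main collagen of fibroblasts, differed from PBS by at most 0.13 on the log2 scale in any treatment.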
